A study of Oryctolagus cuniculus with 34 samples.

Results

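ANGPT1 (angiopoietin 1, rabbit gene ENSOCUG00000003722) was 1 of 23669 genes counted in supraspinatus muscle after rotator cuff repair, and its level was followed here in both shoulders of each rabbit. The gene was chosen by its level in the left, repaired shoulder against the right, control shoulder at 1, 2, 4 and 8 weeks post-repair. Levels are given in CPM, the count of a gene scaled to the total count of its library. Its own values are therefore a description of these libraries, and no test was made on them. The 34 libraries came from 17 female New Zealand White rabbits of about 6 months. In every animal the left supraspinatus tendon had been cut, left detached for 8 weeks (tenotomy) and then repaired. The repaired muscle and the right muscle were collected from 4, 5, 4 and 4 rabbits at these time points, which the labels code as 81, 82, 84 and 88. The right shoulder was unoperated according to the study's methods and received a skin cut according to the labels, and it belonged to the same operated animal. RNA came from the posterior lateral part of the muscle, so that no value covers the whole muscle.

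Angiopoietin 1 is a secreted glycoprotein made mainly by pericytes, smooth muscle cells and fibroblasts around vessels. It activates the receptor tyrosine kinase TIE2 (gene TEK) on endothelial cells, which signals through AKT and steadies vessels by tightening endothelial junctions. Angiopoietin 2 can oppose it at the same receptor, VE-PTP (gene PTPRB) removes the phosphate from TIE2, and TIE1 modulates the complex. In skeletal muscle the same ligand and receptor are known for their part in capillary maintenance and for keeping satellite cells quiescent.

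Expected counts on genes summed to between 9220035 and 28395188 in the 33 libraries compared. The libraries of 1 and 8 weeks bear titles of one series (median total 19343431) and those of 2 and 4 weeks titles of another (median 10625163), so that a difference between these pairs of time points cannot be told apart from a difference between the series. The repair library of rabbit 3 at 8 weeks stood apart with a total of 8756033 and 8701 genes over 1 CPM, against at least 9997 in the others. The study's methods report 1 animal partly filtered out in quality control, by its experimental sample at 8 weeks, and do not name the rabbit. The repair library of rabbit 3 was left out here and is given separately. The repair library of rabbit 59 at 2 weeks also stood apart, with COL3A1 at 31554 CPM against at most 7494 CPM in the other repair libraries of 2 weeks, and the 2-week values that moved by over 1.5 times without it are given both ways. DES, the muscle intermediate filament desmin and the 1 of 8 listed muscle fibre markers that could be matched to the table, lay between 1731 and 6580 CPM in the 33 libraries.

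ANGPT1 was higher in the repaired than in the control muscle of all 16 rabbits with both libraries. The ratio of CPM ran from 1.43 to 4.90, with a median of 2.26. Repair libraries held 12.1 to 46.6 CPM and control libraries 5.96 to 17.9 CPM, and 12 of 16 repair libraries lay above every control library of any week. These levels rest on 65 to 525 counts per library. The lowest count, in the control of rabbit 66, gave 5.999 CPM with an exact 95% Poisson interval of 4.63 to 7.65 CPM, and such intervals cover counting error only. In a bulk sample, more cells that make ANGPT1 and more ANGPT1 RNA per cell cannot be told apart.

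At 1 week post-repair, rabbit 5 had 13.8 CPM in the repaired and 9.02 CPM in the control muscle. The values were 27.3 and 11.99 CPM in rabbit 6, 21.8 and 12.6 CPM in rabbit 7, and 17.0 and 9.44 CPM in rabbit 8. The groups did not overlap in CPM, and the smallest ratio was 1.53 in rabbit 5. The mean log2 ratio was 0.86 ± 0.24 (SD, n = 4), a geometric mean of 1.81-fold.

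At 2 weeks, rabbit 59 had 46.6 CPM in the repaired and 9.84 CPM in the control muscle, and rabbit 62 had 40.4 and 17.9 CPM. The remaining rabbits lay closer together, with 26.0 and 12.1 CPM in rabbit 60, 27.2 and 13.5 CPM in rabbit 61, and 28.1 and 17.0 CPM in rabbit 64. Every repair library lay above every control library. The mean log2 ratio was 1.25 ± 0.58 (SD, n = 5), or 2.38-fold, and 1.00 without rabbit 59, whose ratio was 4.74 against at most 2.25 in the others.

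At 4 weeks, the 4 repair libraries held nearly the same level. Rabbit 63 had 34.4 CPM in the repaired and 10.5 CPM in the control muscle, rabbit 66 had 29.4 and 5.999 CPM, rabbit 67 had 36.4 and 11.4 CPM, and rabbit 68 had 32.5 and 11.8 CPM. In CPM the repaired group was the least variable of the 8 groups (coefficient of variation 8.96%). It did not overlap the controls, and the lowest ratio was 2.75. The mean log2 ratio of 1.79 ± 0.36 (SD, n = 4), or 3.45-fold, was the highest of the 4 time points.

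At 8 weeks, rabbit 1 had 12.1 CPM in the repaired and 8.42 CPM in the control muscle, rabbit 2 had 17.5 and 5.96 CPM, and rabbit 4 had 22.2 and 8.44 CPM. The mean log2 ratio was 1.16 ± 0.56 (SD, n = 3), or 2.23-fold. The repair and control groups overlapped here, because the control of rabbit 3, whose repair library was left out, held 13.4 CPM. In that left-out repair library ANGPT1 stood at 8.34 CPM from 73 counts, below its control (log2 ratio -0.69). With it, the mean at 8 weeks was 0.69 (n = 4).

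**Figure D1:**
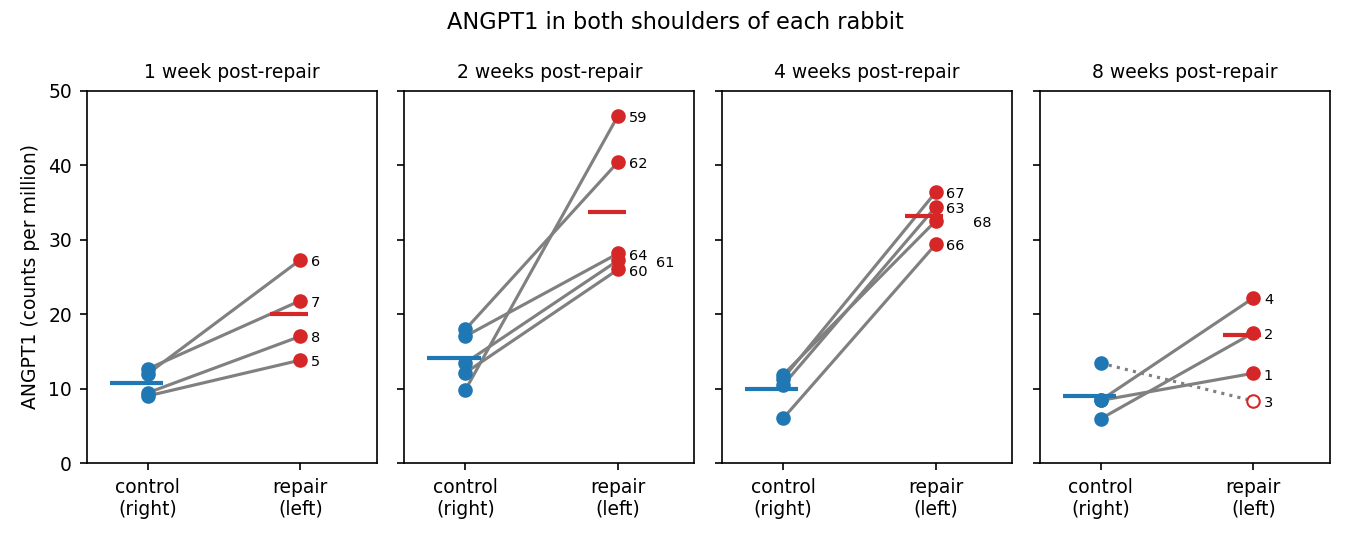
ANGPT1 in CPM in the control (right, blue) and repaired (left, red) muscle of each rabbit, 1 panel per time point, with lines joining the shoulders of 1 rabbit, rabbit numbers beside the points and bars at group means. Every solid line rises, the 4 repair libraries of 4 weeks lie between 29.4 and 36.4 CPM, and the open point is the left-out library of rabbit 3 (8.34 CPM), which is not in the mean.

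Ordered by mean CPM, ANGPT1 was highest in the repaired muscle of 2 weeks (33.7 ± 9.29, SD, n = 5) and 4 weeks (33.2 ± 2.97, n = 4), followed by that of 1 week (20.0 ± 5.87, n = 4) and 8 weeks (17.2 ± 5.06, n = 3). The controls followed with 14.1 ± 3.38 CPM at 2 weeks (n = 5) and 10.8 ± 1.81, 9.91 ± 2.67 and 9.06 ± 3.13 CPM for 1, 4 and 8 weeks (n = 4 each). Among neighbours in this order, only the ranges of the repaired muscle of 4 weeks and 1 week did not overlap, and that step falls between the title series. The name of a gene that rises late therefore holds in part. The ratio to the control shoulder was higher at 4 weeks than at 1 week, but it was lower again at 8 weeks, and the level in repaired muscle was as high at 2 as at 4 weeks. Within a title series, mean CPM in repaired muscle was not higher at the later time point. It was 20.0 at 1 week and 17.2 at 8 weeks, and 33.7 at 2 weeks and 33.2 at 4 weeks. The controls were lower at the later time point, at 10.8 and then 9.06 CPM, and at 14.1 and then 9.91 CPM. The mean log2 ratio within a series went from 0.86 to 1.16 between 1 and 8 weeks and from 1.25 to 1.79 between 2 and 4 weeks. In CPM the ranges of single rabbits overlapped in both pairs, with SDs of 0.24 to 0.58. Between 2 and 4 weeks that overlap came from rabbit 59. Without it the 2-week rabbits lay between 0.72 and 1.17 (mean 1.00 ± 0.20, n = 4), below every rabbit of 4 weeks (1.46 to 2.29). With the scaling described next, the 2-week rabbits other than rabbit 59 reached at most 1.14 and the 4-week rabbits at least 1.32, and the step from 1 to 8 weeks was larger than in CPM, from 0.43 ± 0.15 to 1.07 ± 0.45. There only rabbit 1 (0.55) of the 8-week rabbits lay below the highest rabbit of 1 week (0.57). With the median gene subtracted the means were 0.48 and 1.07.

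Part of the ratio in plain CPM was shared by most genes. The median gene was itself higher in the repaired muscle by 0.38, 0.19, 0.25 and 0.08 (log2) in the order of the time points. The 10 most abundant genes took 21.5 to 27.2% of counts in the repair libraries of 1 week and 28.1 to 29.7% in their controls, and the part of this in the ratio was not tested. With trimmed mean of M-values (TMM) scaling, which sets the bulk of genes level between libraries, the mean log2 ratio of ANGPT1 was 0.43 ± 0.15, 1.01 ± 0.41, 1.52 ± 0.24 and 1.07 ± 0.45 from the first to the last time point (SD, n = 4, 5, 4 and 3). ANGPT1 stayed higher on the repaired side in all 16 rabbits, and the value at 1 week was well below the 0.86 seen in CPM. The groups of 1 week then overlapped, with 12.5 to 19.1 TMM-scaled CPM in repaired and 10.3 to 13.4 in control muscle, while those of 2 and 4 weeks stayed apart. Repaired muscle of 2 weeks then had a narrower range than that of 4 weeks, with 27.4 to 31.8 against 26.4 to 33.9 TMM-scaled CPM. Rabbits 59 and 62 no longer stood above the other repaired muscles of 2 weeks as in CPM, at 30.8 and 31.8. In the left-out library of rabbit 3 the log2 ratio turned from -0.69 in CPM to 0.15 with TMM scaling. Within single rabbits, 13.9 to 28.3% of genes had a higher ratio than ANGPT1 at 1 week and 2.85 to 17.4% at 2 weeks. Later this share was smaller, with 0.249 to 6.81% after 4 weeks and 1.03 to 8.63% after 8 weeks.

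**Figure D2:**
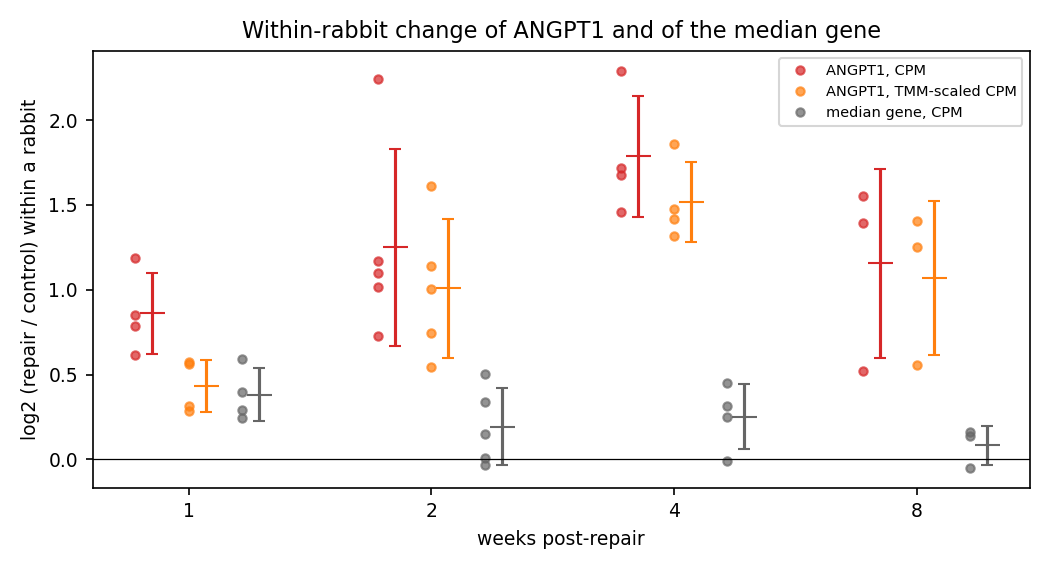
log2 of the repaired over the control level within each rabbit by weeks post-repair, for ANGPT1 in CPM (red), ANGPT1 in TMM-scaled CPM (orange) and the median gene in CPM (grey). Points are rabbits and bars are means ± SD; all ANGPT1 points lie above 0, and in CPM at 1 week the ANGPT1 mean is 0.86 and that of the median gene 0.38.

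In the linear model of all 33 libraries (limma-voom), the log2 fold change (log2FC) of ANGPT1 was 0.42 ± 0.19 (standard error), 1.01 ± 0.18, 1.51 ± 0.22 and 0.87 ± 0.21 in that order. The difference of these effects was 0.45 ± 0.29 between 8 weeks and 1 week, and 0.50 ± 0.28 between 4 and 2 weeks.

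Of the 18 genes listed for the angiopoietin and TIE pathway, 5 could be matched to the table by symbol and were tested, namely TEK, PTPRB, SVEP1, NOS3 and ITGB1. One of 5 rose at 1 week and 1 of 5 at 2 weeks (limma-voom, adjusted p under 0.05), SVEP1 each time, where 6.81% and 7.95% of 12937 genes tested were called higher, and 13.7% and 15.9% in either direction. With the rabbit as a block 3406, 4088 and 364 genes were called at 1, 2 and 4 weeks, in place of 1771, 2053 and 16. At 4 weeks and at 8 weeks 0 of 5 were called. At 4 weeks 0.124% of genes were called in either direction and 1 of the 5, SVEP1, had an unadjusted p under 0.05. edgeR called 0 and DESeq2 1 (SVEP1), beside 1.71% and 3.17% of all genes called higher. At 8 weeks 0.00773% were called, 0 of the 5 had an unadjusted p under 0.05, and both other tools called 0. The median log2FC of the 5 was -0.25, 0.34, 0.09 and -0.18 at 1, 2, 4 and 8 weeks, beside 0.05, 0.06, 0.05 and 0.01 for all genes. The ligand ANGPT2 and the receptor TIE1 were among the 13 not analysed here.

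TEK, the receptor of ANGPT1, did not pass the test at any time point. At 1 week it held 27.5 to 44.5 CPM in repaired and 24.7 to 33.6 CPM in control muscle and was higher in 3 of 4 rabbits. After TMM scaling the sign turned (log2FC -0.25 ± 0.20, limma-voom adjusted p = 0.401). At 2 weeks repaired muscle of rabbits 59 and 62 held 55.0 and 53.4 CPM and that of rabbits 60, 61 and 64 held 18.5, 32.2 and 18.8 CPM, beside 15.4 to 27.0 CPM in controls. The log2FC there was 0.42 ± 0.19 (adjusted p = 0.112 in limma-voom, and 0.033 with the rabbit as a block). At 4 weeks the repaired muscles of rabbits 63, 66, 67 and 68 held 30.4, 29.8, 29.4 and 40.004 CPM, all above their controls at 26.9, 15.3, 20.1 and 28.2 CPM, which they did not overlap in CPM. After scaling the log2FC was 0.27 ± 0.21 (adjusted p = 0.540). At 8 weeks TEK was lower in 2 of 3 rabbits (log2FC -0.36 ± 0.22, adjusted p = 0.999).

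Since both are counted in the same library, the ratio of ANGPT1 to TEK does not depend on scaling. This ratio was higher in the repaired than in the control muscle of 16 of 16 rabbits, by 0.91 ± 0.45 on the log2 scale (SD), or 1.89-fold. By time point the difference was 0.68 ± 0.08 (1 week, n = 4), 0.59 ± 0.43 (2 weeks, n = 5), 1.24 ± 0.25 (4 weeks, n = 4) and 1.33 ± 0.42 (8 weeks, n = 3). It thus stayed high at 8 weeks, where TEK was lower in most rabbits. Against PTPRB, the phosphatase that acts on TIE2, the difference was 1.03 ± 0.51 and again positive in 16 of 16 rabbits. These ratios contain the values that chose ANGPT1 and carry no test.

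PTPRB itself was not called, with a log2FC of -0.46 ± 0.25 at 1 week and 0.34 ± 0.23 at 2 weeks (limma-voom adjusted p = 0.198 and 0.300), 0.09 ± 0.26 at 4 weeks and -0.30 ± 0.27 at 8 weeks (adjusted p = 0.882 and 0.999). Leaving out the rabbit 59 repair library, the 2-week value was 0.21 (adjusted p = 0.634). At 2 weeks PTPRB followed the split seen for TEK, with 61.98 and 57.7 CPM in repaired muscle of rabbits 59 and 62 and 12.9, 39.9 and 16.9 CPM in that of rabbits 60, 61 and 64. NOS3, the endothelial nitric oxide synthase that AKT phosphorylates, had log2FC values between -0.25 and 0.30 (adjusted p at least 0.310), and its negative values at 1 and 4 weeks were positive in mean CPM. ITGB1, the integrin beta 1 subunit, lay between -0.0023 and 0.17 (adjusted p at least 0.488), with the value below 0, at 8 weeks, above 0 in mean CPM.

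SVEP1, a large extracellular matrix protein that interacts with TIE1, rose at 1 and 2 weeks. At 1 week the repaired muscles of rabbits 5, 6, 7 and 8 held 50.8, 155, 134 and 72.1 CPM and their controls 10.9, 32.98, 14.3 and 13.02 CPM. The groups did not overlap, with a log2FC of 2.08 ± 0.60 (limma-voom adjusted p = 0.025, higher in 4 of 4). The call at 1 week was lost with all 34 libraries (adjusted p = 0.058) and without any 1 of 5 of the 8 libraries of that week, namely the repair libraries of rabbits 6 and 7 and the controls of rabbits 5, 7 and 8 (adjusted p up to 0.073).

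At 2 weeks SVEP1 held 318 and 304 CPM in the repaired muscle of rabbits 59 and 62, and 54.4, 29.3 and 15.6 CPM in that of rabbits 60, 61 and 64. Controls lay between 6.49 and 15.1 CPM, just under the lowest repair library. The log2FC was 2.58 ± 0.59 (limma-voom adjusted p = 0.010, higher in 5 of 5), and the call held without each library in turn (adjusted p up to 0.041). At 4 weeks SVEP1 was higher in 3 of 4 rabbits (log2FC 1.62 ± 0.70, limma-voom adjusted p = 0.257), and DESeq2 called it (log2FC 1.80, adjusted p = 0.028). At 8 weeks SVEP1 was higher in 3 of 3 (0.79 ± 0.61, limma-voom adjusted p = 0.999). Its time course differed from that of ANGPT1 in the order of the ratios. The ratio of ANGPT1 to SVEP1 was lower in the repaired muscle of 4 of 4 rabbits at 1 week and higher in 2 of 3 at 8 weeks, and this difference over time was not tested.

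Of 8 angiopoietin-like genes, which encode secreted relatives that do not bind TIE2, ANGPTL1 and ANGPTL7 were tested and neither was called at any week. At 2 weeks 1 of them had an unadjusted p under 0.05 in limma-voom and both were called by edgeR and by DESeq2, which called 20.0% and 20.7% of all genes higher. At 1, 4 and 8 weeks none had an unadjusted p under 0.05 and neither edgeR nor DESeq2 called one. ANGPTL1 had a log2FC of 0.56 ± 0.39, 0.83 ± 0.35, 0.51 ± 0.41 and 0.30 ± 0.41 at 1, 2, 4 and 8 weeks (adjusted p = 0.315, 0.096, 0.552 and 0.999), and the 2-week value was 0.46 (adjusted p = 0.384) leaving out the rabbit 59 repair library. ANGPTL7 held 0 to 0.940 CPM in controls of 2 weeks and 0.405 to 52.2 CPM in repaired muscle, with a log2FC of 5.12 ± 2.80 (limma-voom adjusted p = 0.184, and 0.020 with the rabbit as a block). In the other weeks its controls reached 2.11, 0.304 and 15.9 CPM at 1, 4 and 8 weeks, and the log2FC was 2.45 ± 2.27, 2.89 ± 3.25 and 3.21 ± 1.70 (adjusted p = 0.466, 0.680 and 0.999).

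Of 10 VEGF ligands and receptors, VEGFA, VEGFC, FLT4, NRP1 and NRP2 were tested. At 1 week 1 of 5 fell, where 6.88% of genes tested were called lower, and none was called higher (1 of 5 higher at an unadjusted p under 0.05 in limma-voom, and 0 by edgeR and DESeq2). At 2 weeks 1 of 5 fell and 2 of 5 rose, where 7.92% and 7.95% were called lower and higher. edgeR and DESeq2 each called 3 of 5 higher and 0 lower then, and the rabbit block 3 higher and 1 lower, beside 20.0%, 20.7% and 19.2% of all genes called higher. At 4 and 8 weeks 0 of 5 were called by limma-voom, edgeR or DESeq2, and 0 had an unadjusted p under 0.05.

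VEGFA, the main growth signal for capillary endothelium, moved the other way from ANGPT1. At 1 week the repaired muscles of rabbits 5, 6, 7 and 8 held 42.1, 69.0, 39.3 and 56.6 CPM and their controls 117, 88.2, 130 and 73.3 CPM. The groups did not overlap (log2FC -1.40 ± 0.28, limma-voom adjusted p = 0.003, lower in 4 of 4), and the call held without each library in turn (adjusted p up to 0.018) but not with all 34 libraries (adjusted p = 0.128). At 2 weeks VEGFA was lower in 4 of 5 rabbits, with 50.2 to 68.9 CPM in 4 repair libraries, 126 CPM in that of rabbit 64 and 79.6 to 122 CPM in controls.

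The log2FC of VEGFA at 2 weeks was -0.69 ± 0.24 (limma-voom adjusted p = 0.0465). This call was lost in edgeR (adjusted p = 0.075), in DESeq2 (adjusted p = 0.058), with all 34 libraries (adjusted p = 0.348) and without any of 9 of the 10 libraries, all but the repair library of rabbit 64 (adjusted p up to 0.186, reached with the rabbit 59 repair library left out). At 4 weeks VEGFA was lower in 4 of 4 and at 8 weeks in 3 of 3 rabbits, with log2FC values of -0.54 ± 0.27 and -0.50 ± 0.31 that did not pass the test (adjusted p = 0.315 and 0.999). The ratio of ANGPT1 to VEGFA within a library was higher in the repaired muscle of 16 of 16 rabbits, by 1.83 ± 0.68 on the log2 scale (SD), or 3.55-fold. Over the time points it was 1.84 ± 0.57, 1.70 ± 0.99, 2.06 ± 0.32 and 1.70 ± 0.87.

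The co-receptors NRP1 and NRP2, which bind VEGF and semaphorins, both rose at 2 weeks (log2FC 0.49 ± 0.17 and 1.41 ± 0.42, limma-voom adjusted p = 0.046 and 0.028). Leaving out the rabbit 59 repair library, the log2FC fell to 0.28 for NRP1 and 0.87 for NRP2, and neither was called (adjusted p = 0.203 and 0.0765). Both calls were also lost without the repair library from rabbit 62 or the control of rabbit 60, 61, 62 or 64 (for NRP1 also that of rabbit 59), and with all 34 libraries (adjusted p = 0.348 and 0.064). NRP1 was not called with median-ratio scaling (adjusted p = 0.051) or without a filter (0.071) either. At 1 week NRP2 was higher in 4 of 4 rabbits (18.9 ± 6.49 against 6.48 ± 0.54 CPM, log2FC 1.07 ± 0.39, adjusted p = 0.064, and 0.014 with the rabbit as a block). FLT4, the VEGF receptor of lymphatic endothelium, had a log2FC of 0.79 ± 0.28 at 2 weeks (limma-voom adjusted p = 0.053, 0.016 with the rabbit as a block, 0.009 in edgeR and 0.004 in DESeq2), and of 0.57 (limma-voom adjusted p = 0.213) leaving out the rabbit 59 repair library. VEGFC, its ligand, was not called (log2FC -0.20 to 0.33, adjusted p at least 0.429), and its lowest value, at 4 weeks, was above 0 in mean CPM. Its 2-week value went from 0.33 to 0.06 leaving out the rabbit 59 repair library.

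**Figure D3:**
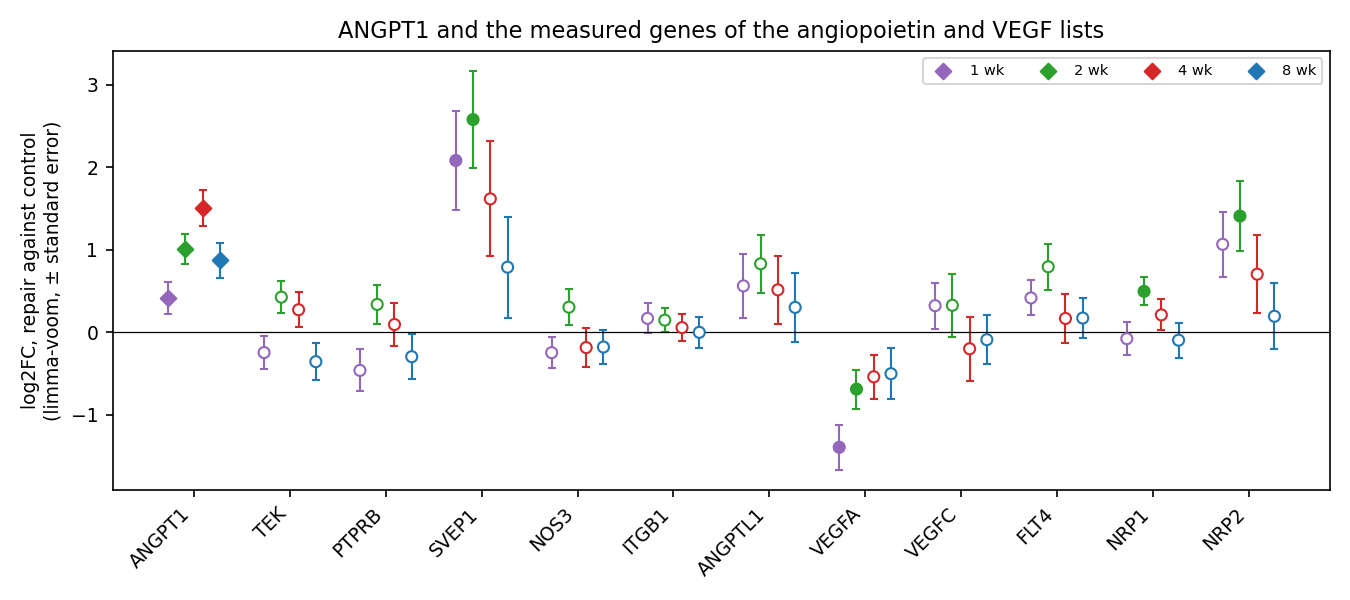
log2FC of repair against control (limma-voom, bars ± standard error) at 1, 2, 4 and 8 weeks post-repair for ANGPT1 (diamonds, not tested) and the tested genes of the angiopoietin and VEGF lists except ANGPTL7, whose errors exceed the axis. Filled circles passed an adjusted p of 0.05; SVEP1 at 2.08 and 2.58 and VEGFA at -1.40 and -0.69 at 1 and 2 weeks are the ones farthest apart, while ANGPT1 peaks at 1.51 at 4 weeks and TEK stays between -0.36 and 0.42.

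The cell types that make or receive ANGPT1 were followed by marker lists. Of 16 endothelial markers 8 were tested, and 2 of them rose at 2 weeks, VWF (von Willebrand factor, log2FC 0.84 ± 0.28) and ERG (an endothelial transcription factor, 0.66 ± 0.23; limma-voom adjusted p = 0.042 and 0.049). Of all genes limma-voom called 7.95% higher then. edgeR, DESeq2 and the rabbit block each called 5 of the 8, with 20.0%, 20.7% and 19.2% of all genes called higher. At 1, 4 and 8 weeks limma-voom called 0 of 8 (1, 1 and 0 at an unadjusted p under 0.05; edgeR 0, 0 and 0; DESeq2 1, 0 and 0). CD34, also on stromal cells, had a log2FC of 1.00 ± 0.39 at 1 week (adjusted p = 0.079, and 0.030 with the rabbit as a block). Of 11 mural cell markers 6 were tested. MCAM, an adhesion molecule of pericytes and endothelium, rose at 1 week and 2 weeks (0.90 ± 0.28 and 1.09 ± 0.28, adjusted p = 0.037 and 0.016) and was the 1 of 6 called each time, where the share over all genes was 6.81% and 7.95%. edgeR and DESeq2 each called 1 of 6 at 1 week and 3 at 2 weeks, and the rabbit block 3 and 2, where these called 6.08%, 8.31% and 14.8% of all genes higher at 1 week. At 4 weeks MCAM held 28.5 to 53.02 CPM in repaired and 13.3 to 19.8 CPM in control muscle (1.15 ± 0.30, adjusted p = 0.087, and 0.045 with the rabbit as a block).

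CSPG4, the pericyte proteoglycan NG2, had a log2FC of 0.89 ± 0.31 at 1 week (limma-voom adjusted p = 0.055, and 0.011 with the rabbit as a block). ACTA2, smooth muscle actin, had one of 0.74 ± 0.27 at 2 weeks (adjusted p = 0.058). At 4 and 8 weeks limma-voom called 0 of the 6 mural markers, with 2 and 0 at an unadjusted p under 0.05. edgeR and DESeq2 each called 1 and 0. Of all genes at 4 weeks, limma-voom called 0.0773% higher, edgeR 1.71% and DESeq2 3.17%. Of 10 markers of fibro-adipogenic stroma 5 were tested. COL1A1, a fibrillar collagen chain, and PDGFRA, a receptor of stromal progenitors, rose at 2 weeks (2.80 ± 0.88 and 1.68 ± 0.58, adjusted p = 0.033 and 0.047), and COL3A1 had a log2FC of 1.85 ± 0.68 (adjusted p = 0.059). These 2 of 5 stand beside 7.95% of all genes called higher, and edgeR and DESeq2 called 5 of 5 and the rabbit block 3, beside their shares of 20.0%, 20.7% and 19.2%. The log2FC of COL3A1 at 2 weeks was 3.78 in edgeR and 3.79 in DESeq2 (adjusted p = 0.002 and 7.0e-06). At 1, 4 and 8 weeks limma-voom called 0 of the 5 stroma markers, with 2, 2 and 0 at an unadjusted p under 0.05. edgeR and DESeq2 each called 2, 0 and 0, and the block 1, COL1A1 at 1 week. Of all genes at 1 week, limma-voom called 6.81% higher, edgeR 6.08%, DESeq2 8.31% and the block 14.8%.

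Of 8 adipocyte markers 3 were tested. ADIPOQ, the adipocyte hormone adiponectin, rose at 1 and 2 weeks (log2FC 1.51 ± 0.47 and 1.43 ± 0.36, limma-voom adjusted p = 0.034 and 0.015), and LIPE, hormone-sensitive lipase, rose at 1 week (1.90 ± 0.57, adjusted p = 0.029), when 6.81% and, at 2 weeks, 7.95% of all genes were called higher. CD36, a fatty acid transporter also found on endothelium and muscle, rose at 4 weeks, when 0.0773% of genes were called higher (238 to 431 against 60.1 to 140 CPM, log2FC 1.41 ± 0.26, adjusted p = 0.014). That call was lost without the control of rabbit 66 or the repair library from rabbit 63, 66 or 67 (adjusted p up to 0.091). ADIPOQ and LIPE had log2FC values of 1.68 ± 0.41 and 2.48 ± 0.63 at 4 weeks (adjusted p = 0.078 and 0.081, and 0.014 and 0.0045 with the rabbit as a block). edgeR, DESeq2 and the block each called 3 of 3 at 1 week and again at 4 weeks, where limma-voom called 2 and 1, and at 2 weeks edgeR called 1 and DESeq2 and the block 2. Their shares of all genes called higher were 6.08%, 8.31% and 14.8% at 1 week, 20.0%, 20.7% and 19.2% at 2 weeks, and 1.71%, 3.17% and 1.82% at 4 weeks. In plain CPM, in which the median gene was also higher on the repaired side, these 3 genes lay higher in 15 or 16 of 16 rabbits each. Some members of other lists did so too, such as ERG in 16 and VWF and MCAM in 15. The share of all genes with such a count was not computed. At 8 weeks 0 of 3 were called, none had an unadjusted p under 0.05, and edgeR and DESeq2 called 0.

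Of 6 macrophage markers 4 were tested and limma-voom called 0 at each week (0, 1, 0 and 0 at an unadjusted p under 0.05; edgeR and DESeq2 called 4 at 2 weeks and 0 at the others). Over all 12937 genes edgeR called 3716 at 2 weeks, 2586 of them higher, and DESeq2 4033, 2684 of them higher. Of the 4 macrophage markers, MRC1, ITGAM and CSF1R had log2FC values of 1.80 ± 1.01, 2.11 ± 0.95 and 2.08 ± 1.06 at 2 weeks (limma-voom adjusted p = 0.194, 0.110 and 0.156, and 0.004 and 0.003 for MRC1 and CSF1R with the rabbit as a block). Leaving out the rabbit 59 repair library, they were 0.88, 1.19 and 1.10 (limma-voom adjusted p = 0.552, 0.394 and 0.450). With all its libraries they were 3.25, 2.93 and 3.52 in edgeR and 3.26, 2.95 and 3.53 in DESeq2. CD163 was at 0 in the repair library of rabbit 68. DES fell at 2 weeks (-0.84 ± 0.23, adjusted p = 0.022, lower in 5 of 5). No satellite cell or lymphatic marker of the lists could be matched.

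The 2-week calls in these marker lists were lost when single libraries were left out. With the rabbit 59 repair library left out, limma-voom called 328 genes in place of 2053, and SVEP1 was the only member of any list called. The log2FC was then 0.44 for VWF, 0.39 for ERG, 1.69 for COL1A1, 1.08 for PDGFRA and -0.55 for DES (adjusted p = 0.177, 0.220, 0.177, 0.162 and 0.067). COL3A1 and ACTA2, not called with it either, went to 0.98 and 0.50 (adjusted p = 0.305 and 0.252). MCAM and ADIPOQ moved less, to 0.83 and 1.19 (adjusted p = 0.062 and 0.068). The calls of VWF, ERG, COL1A1 and PDGFRA were also lost without the rabbit 62 repair library (adjusted p = 0.098, 0.085, 0.114 and 0.109), and that of ADIPOQ fell just short (adjusted p = 0.05004). Leaving out the control of rabbit 60, 62 or 64 ended these 4 calls too, as did that of rabbit 61 for VWF, ERG and PDGFRA and that of rabbit 59 for VWF and PDGFRA. With all 34 libraries VWF, ERG, COL1A1, PDGFRA and DES were not called (adjusted p = 0.130, 0.161, 0.069, 0.075 and 0.114), whereas MCAM and ADIPOQ were. Without a filter the calls of VWF, ERG and PDGFRA were lost (adjusted p = 0.057, 0.071 and 0.051), and that of ERG also with median-ratio scaling (0.055).

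Leaving out single libraries of 1 week also ended calls. Those of ADIPOQ, LIPE and MCAM were lost without the control of rabbit 5, 7 or 8 or the repair library from rabbit 6, besides that of rabbits 5 and 7 for ADIPOQ, 8 for LIPE and 7 for MCAM (adjusted p up to 0.104, 0.092 and 0.127). The marker calls of 1 and 4 weeks were lost with all 34 libraries, with an adjusted p of 0.068 for ADIPOQ, 0.117 for LIPE and 0.095 for MCAM at 1 week and of 0.165 for CD36 at 4 weeks.

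Set beside these lists in plain CPM within rabbits, ANGPT1 and vascular markers differed by less than the spread of rabbits early and by more later. The summed CPM of the 8 endothelial markers was higher in the repaired muscle by 0.80 ± 0.32, 0.91 ± 1.09, 0.51 ± 0.11 and 0.12 ± 0.10 (log2, SD) from 1 to 8 weeks. Leaving out rabbit 59 brought the 2-week value to 0.50 ± 0.68 (n = 4). ANGPT1 exceeded this change by 0.06 ± 0.45 at 1 week and 0.34 ± 0.58 at 2 weeks (0.51 ± 0.53 leaving out rabbit 59), within the spread of rabbits. It exceeded it in 4 of 4 rabbits at 4 weeks, by 1.28 ± 0.31, and in 3 of 3 at 8 weeks, by 1.04 ± 0.47. The 6 mural cell markers changed by 0.83 ± 0.63, 0.93 ± 1.22, 0.80 ± 0.41 and 0.16 ± 0.27 in the same order, with 0.53 ± 0.94 at 2 weeks if rabbit 59 is left out. ANGPT1 exceeded them by 0.99 ± 0.22 at 4 weeks and 1.00 ± 0.32 at 8 weeks, in every rabbit of both. These differences contain the values that chose ANGPT1, so they carry no test either.

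The stroma list moved more than ANGPT1 at 1 week in 4 of 4 rabbits, by 2.54 ± 0.89 (log2, SD). It moved by 2.22 ± 2.79 at 2 weeks (1.32 ± 2.21 leaving out rabbit 59), where ANGPT1 moved more in 3 of 5, by 1.72 ± 1.65 at 4 weeks and by 0.76 ± 0.04 at 8 weeks. Its summed CPM ran from 4020 to 17238 in repaired and from 926 to 1299 in control muscle at 1 week, and from 492 to 56898 against 553 to 978 at 2 weeks, with 13496 the highest besides rabbit 59. Most of this sum was collagen RNA, with a mean of 2331 CPM for COL3A1 and 1208 CPM for COL1A1, and 18.3 to 596 CPM for the other members. The limma-voom log2FC of COL1A1 and COL3A1 was 3.30 and 2.36 at 1 week and 2.10 and 1.70 at 4 weeks. That of the other members was 0.61 to 1.21 and 0.69 to 0.96. The adipocyte list moved by 1.72 ± 0.60, 1.26 ± 0.73, 1.89 ± 0.82 and 0.66 ± 0.54. At 4 weeks it ran from 532 to 1032 CPM in repaired and from 122 to 311 CPM in control muscle. At 2 weeks it was the list whose mean change lay nearest to that of ANGPT1 (difference -0.01 ± 0.58). Leaving out rabbit 59, this difference was -0.10 ± 0.63, beside -0.13 ± 1.91 for the macrophage list. The macrophage list held 577 CPM in the repaired muscle of rabbit 59 and 125 CPM in that of rabbit 62 at 2 weeks, while the other 3 repair libraries held 4.76 to 11.8 CPM and the controls 4.90 to 9.59 CPM. Its change was 2.12 ± 2.82, and 1.14 ± 2.03 leaving out rabbit 59. The part of any of these cell types in the level of ANGPT1 was not tested.

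**Figure D4:**
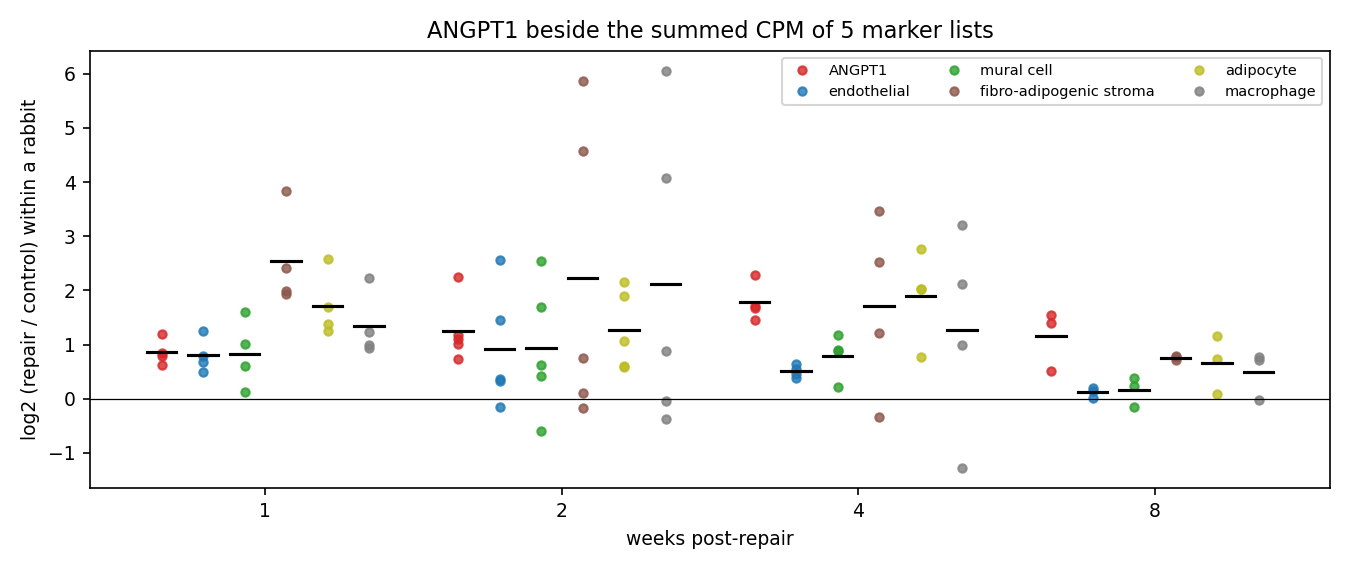
log2 of the repaired over the control level within each rabbit, in plain CPM, for ANGPT1 (red) and the summed CPM of the tested endothelial, mural cell, fibro-adipogenic stroma, adipocyte and macrophage markers, by weeks post-repair. Points are rabbits and black bars are means; at 4 and 8 weeks every ANGPT1 point but 1 lies above 1 while the endothelial means are 0.51 and 0.12.

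Among 10041 genes with a mean of at least 2 CPM, the pattern most like that of ANGPT1 was sought in 2 ways, as a description with no test. Over the log2 ratios of the 16 rabbits, the median Pearson r of all genes was 0.22 and the 95th percentile 0.57. The highest r belonged to LRRC40 (0.88), a leucine-rich repeat protein. It was followed, among genes with a symbol, by PHYH (0.83), a peroxisomal hydroxylase of branched fatty acids, TYW1 (0.82), an enzyme of tRNA modification, DNM1L (0.82), the GTPase of mitochondrial fission, and TSPYL6 (0.79). MICU3 (0.75), a regulator of mitochondrial calcium uptake, MKKS (0.74), a chaperonin-like protein, and DNAJC3 (0.73), a co-chaperone of the endoplasmic reticulum, completed the 8. The lowest among genes with a symbol were YBX3 (-0.81), an RNA- and DNA-binding cold shock protein, ANKRD35 (-0.79) and LSMEM2 (-0.78). By title series, the r of LRRC40 was 0.92 over the 7 rabbits of 1 and 8 weeks and 0.81 over the 9 of 2 and 4 weeks. That of MICU3 was 0.32 and 0.81. Both genes were picked over these same 16 rabbits, so the values are no independent check. The highest r of any gene over the 7 rabbits was 0.99.

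Over 33 libraries with the group means removed, the median r was 0.31 and the 95th percentile 0.59. The highest r belonged to ABCA8 (0.81), an ABC transporter of lipids. DOCK4 (0.74), an activator of small GTPases, TSPYL6 (0.72), ADAMTS5 (0.72), a protease of the extracellular matrix, FMNL2 (0.71), a formin, DGCR8 (0.71), of microRNA processing, UHRF2 (0.71), a ubiquitin ligase, and MAML2 (0.70), a coactivator of Notch, followed among genes with a symbol. UCHL1 (-0.58), a deubiquitinating enzyme, SH3BGR (-0.57) and LSMEM2 (-0.57) were lowest among genes with a symbol. Among genes with a symbol, TSPYL6 was the 1 gene in the top 8 of both measures (ranks 11 and 26 of all genes) and LSMEM2 was in the lowest 3 of both (ranks 10039 and 10036). TEK had an r of 0.65 over the ratios, rank 150, and 0.66 over the libraries, rank 101. VEGFA had 0.20 and 0.01. All these values share the libraries, and with them the depth and scaling, of ANGPT1, and only 2874 of the 10041 genes had a symbol.

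Whether the repair effect differed between time points of 1 title series was tested for the 12 tested genes of the angiopoietin and VEGF lists. Limma-voom called 0 of 12 between 1 and 8 weeks and 0 of 12 between 2 and 4 weeks, with 1 (VEGFA, a difference of 0.89 ± 0.41, adjusted p = 0.827) and 0 at an unadjusted p under 0.05, and edgeR and DESeq2 called 0. Over all 12937 genes limma-voom likewise called 0 in both comparisons, with 683 and 359 at an unadjusted p under 0.05. The time courses above are therefore values side by side. A difference between time points was not shown for these genes, nor does the test show that their effects were equal.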

How the data were processed

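Muscle RNA of 34 libraries (17 rabbits, both shoulders) was analysed. The authors aligned reads with STAR to OryCun2.0 and counted them per gene with RSEM (Ensembl release 91), and the submitters' notes also name FastQC, edgeR and limma. The deposited values are expected counts, not whole and not scaled. Groups came from the sample labels, and 0 columns of the table were unused. The fit left out 1 library, the repaired side of rabbit 3 at 8 weeks. The study's methods also report 1 experimental sample of 8 weeks as filtered out, without the rabbit number. Genes had to exceed 1 CPM in 1 or more of the 33 libraries, which kept 12937 of 23669. Scaling was by TMM (edgeR 4.0.16). The limma-voom model (limma 3.58.1 under R 4.3.3) had a mean for each group and no rabbit term. A gene was called at a Benjamini-Hochberg adjusted p under 0.05 over all genes tested, two-sided. CPM used the plain total on genes. Counts were rounded for edgeR quasi-likelihood and DESeq2 1.42.0. Figures used matplotlib 3.10.9. The script was tested on simulated data.

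The gene and the lists were chosen with earlier results of these data known. Symbols are those of human orthologues, available for 3310 tested genes from the study's supplementary tables. Most come from a co-expression module table built on these repair libraries, held here only in part, so that list members with a symbol are no unbiased sample. Gene lengths were not used, and levels are not compared between genes. Named were ANGPT1, all tested members of the angiopoietin, angiopoietin-like and VEGF lists, the 3 members of smallest adjusted p of each marker list, and by each likeness measure (log2 of CPM plus 0.5) the 8 genes of highest and the 3 of lowest r. CD163 at 0 in 1 library, the list members whose call changed with the block, and marker values of other weeks were named after their values were seen. The shoulders of a rabbit pair by the rabbit number in the titles. Their deviations from group means correlated at -0.03 to 0.53 (median 0.31, 16 rabbits). The depth of 9220035 to 28395188 counts gave ANGPT1 a counting error of 0.10 to 0.20 on the log2 ratio of a rabbit. Alternatives were all 34 libraries, median-ratio scaling, other filters, edgeR, DESeq2, the rabbit as a block and leaving out each library. Subtracting the median gene of each rabbit, and the summed markers without rabbit 59, were added after the data were seen. Highest r between 2 libraries was 0.990, so none was counted as a duplicate. The authors' own fold changes and p-values were not used.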

Additional observations from a re-analysis of the deposited data

Results flagged for a closer look

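ANGPT1 had no library far from the rest of its group. Among the genes named, 19 of 203 groups of 4 or 5 libraries held 1 library whose gap to the others was large for the range of the group. The limit used would flag about 1 in 20 groups of independent normal values. CPM values need not be normal and the genes share libraries, so whether 19 is more than chance was not tested. Of the 19, 7 were values in the libraries of rabbit 59 at 2 weeks. In its repair library NRP2 stood at 96.9 CPM (others 7.91 to 24.3), VWF at 798 CPM (63.9 to 256), COL1A1 at 21919 CPM (39.8 to 4087), COL3A1 at 31554 CPM (226 to 7494), ITGAM at 32.9 CPM (0.675 to 4.15) and CSF1R at 152 CPM (1.84 to 35.5). In its control DES stood at 5827 CPM (4179 to 4548).

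In the repair library of rabbit 7 at 1 week COL1A1 stood at 4996 CPM (others 1015 to 1502) and COL3A1 at 11051 CPM (2114 to 2811), and in its control ACTA2 was low at 69.5 CPM (119 to 126) and ANGPTL7 was at 2.11 CPM (0.130 to 0.188). TEK, the ANGPT1 receptor, stood at 40.004 CPM in the repair library of rabbit 68 at 4 weeks (29.4 to 30.4). VWF stood at 146 CPM in that of rabbit 63 at 4 weeks (122 to 124). SVEP1 stood at 32.98 CPM in the control of rabbit 6 at 1 week (10.9 to 14.3). VEGFA stood at 126 CPM in the repair library of rabbit 64 at 2 weeks (50.2 to 68.9). ANGPTL7 stood at 0.940 CPM in the control of rabbit 60 at 2 weeks (0 to 0.194), 7.81 CPM in the repair library of rabbit 63 at 4 weeks (0.468 to 1.32), 0.304 CPM in the control of rabbit 68 at 4 weeks (0.0902 to 0.0979) and 15.9 CPM in the control of rabbit 4 at 8 weeks (0.100 to 1.01).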

How the results depend on the processing

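ANGPT1 stayed higher on the repaired side at every time point under every alternative run. At 1 week its mean log2 ratio moved from 0.86 to 0.43 with TMM scaling, 0.42 with median-ratio scaling and 0.48 with the median gene subtracted. Without each rabbit in turn the mean ran over 0.75 to 0.94, 1.00 to 1.38, 1.62 to 1.90 and 0.96 to 1.47 from the first to the last time point. The limma-voom fit called 1771, 2053, 16 and 1 genes at 1, 2, 4 and 8 weeks. With all 34 libraries the counts were 294, 412 and 5 at 1, 2 and 4 weeks. The rabbit as a block gave 3406, 4088 and 364, and called the same 1 gene at 8 weeks and 0 between time points. edgeR gave 3716 and 327 and DESeq2 4033 and 675 at 2 and 4 weeks, and DESeq2 5 at 8 weeks. At 2 weeks 1029 of the 2053 calls were higher in limma-voom, 2586 of 3716 in edgeR, 2684 of 4033 in DESeq2 and 2480 of 4088 with the block. No filter gave 50 at 4 weeks and 3 at 8 weeks, and the 5-library filter 0 at 8 weeks (397 at an unadjusted p under 0.05 in limma-voom with the filter of 1 library). For a change of effect between 1 and 8 weeks no filter called 2 and DESeq2 3, and between 2 and 4 weeks DESeq2 called 1. Without each library in turn the counts were 593 to 1763, 328 to 3456, 2 to 281 and 0 to 4, and 0 to 1 and 0 to 0 for the changes of effect. The extremes lay without the control of rabbit 7 at 1 week, the repair libraries of rabbits 59 and 64 at 2 weeks, and those of rabbits 67 and 68 at 4 weeks.

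Over the 156 tests of list members against control, the rabbit as a block added 21 calls and lost 0. Those of genes and weeks not given above are PDGFRB at 1 and 2 weeks, CD36 at 1 week, and CDH5, MMRN2, CD34, THY1, CD163 and LIPE at 2 weeks. Among the named genes and weeks, signs turned only where the gene was not called. Leaving out single libraries, PTPRB ran from -0.0066 to 0.23 at 4 weeks (below 0 without the repair library from rabbit 68 or the control of rabbit 66), ITGB1 from -0.034 to 0.25 at 2 weeks (below 0 without rabbit 59's repair library) and from -0.054 to 0.046 at 8 weeks, VEGFC from -0.28 to 0.10 at 8 weeks and NRP1 from -0.16 to 0.012 at 1 week. With the block ITGB1 was 1.4e-06 at 8 weeks. With all 34 libraries ANGPTL1 and NRP2 were -0.0095 and -0.14 at 8 weeks, in place of 0.30 and 0.19. The cause was not tested. Depth limits ANGPTL7 in particular, which was at 0 in 2 controls of 2 weeks.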
